A study of Homo sapiens with 12 samples.

Results

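The genes described here are 10 factors that drive or restrain the growth of blood vessels: the ligands VEGFA, VEGFB, VEGFC, PGF, FGF2 and ANGPT1, the receptors FLT1 and KDR, and the inhibitors THBS1 and SERPINF1. They were chosen by gene name, with no threshold on their values, from the 40591 lines of the deposited count table that carry a gene symbol, and 10 of 10 were found. The 10 and the further lists were chosen with earlier results of these data known. Their shares beside those of all genes tested are a description. The table holds poly(A) RNA from 12 libraries of ARPE-19, a widely used cell line from human retinal pigment epithelium (RPE), in 4 groups of 3. WT names ARPE-19 cells with no open reading frame (ORF) in their label. GFP, GSTA4 and OSK name stable ARPE-19 lines collected after 4 days of expression of an ORF: green fluorescent protein (taken here as the control), glutathione S-transferase alpha 4, and OSK, the usual short name for the reprogramming factors OCT4 (POU5F1), SOX2 and KLF4. The promoter that drives the ORF is not given in the sources used here, nor is the origin of replicates, which may be separate cultures or 1 culture sampled repeatedly. An ORF therefore cannot be told apart from other differences between the lines, and p-values measure only the spread between these libraries, which may be technical. In such bulk RNA, fewer cells that express a gene and less of its RNA per cell cannot be told apart.

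In the eye, the RPE lies between the photoreceptors and the choroidal vessels and secretes factors toward each side. VEGFA maintains the choroidal capillaries and is the target of drugs against neovascular macular degeneration, while pigment epithelium-derived factor (PEDF, the product of SERPINF1) and thrombospondin 1 (THBS1) restrain vessel growth. VEGFA, VEGFB and PGF bind the receptor FLT1, and VEGFA signals mainly through KDR. VEGFC is best known for lymphatic vessels, FGF2 is a heparin-bound mitogen, and ANGPT1 stabilises vessels through the endothelial receptor TEK.

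The labels were checked on the ORF genes. GSTA4 had 415.3 CPM ± 17.6 in its own line and from 5.46 to 20.2 CPM elsewhere, and POU5F1, SOX2 and KLF4 had 778.1, 627.3 and 926.6 CPM in OSK and at most 1.57 CPM elsewhere (means of n = 3; CPM is reads per 1000000 after scaling for library composition). Libraries held from 12630675 to 17045454 reads, which puts the upper limit for a gene with 0 reads in a library (3 reads, counting error only) at 0.177 to 0.228 CPM. In GFP replicate 1 as many as 27349 named genes had a read, while the other 11 libraries had 19488 to 22073 such genes, and WT replicate 1 differed from the other WT libraries by 14.2 and 16.7 times the sampling variance per gene, where those differed from each other by 2.5. Among RPE markers 15 of 18 passed the filter on low counts, among them PMEL and MITF, but RPE65, the visual cycle isomerase, had at most 10 reads in a library. Among 12 endothelial markers 3 passed it, and the summed level of the 12 was 2.44 to 11.6 CPM, with the highest value in GFP. Fibroblast markers, 5 of 11 tested, summed to 851 to 930 CPM in WT, 836 to 948 in GFP, 560 to 601 in GSTA4 and 375 to 439 in OSK, and LUM had 0 reads in all 12 libraries. RPE markers summed to 3460 to 4100 CPM over WT and GFP, 2690 to 2740 in GSTA4 and 3210 to 3290 in OSK. A few genes set both sums, which are therefore no measure of a cell type. Among fibroblast markers PDGFRB alone had means of 650.3, 659.1, 538.7 and 342.2 CPM in WT, GFP, GSTA4 and OSK. Most of the RPE sum in WT came from KRT8, SLC16A3, EZR and KRT18 (means of 1245, 681.4, 657.1 and 431.7 CPM). The part of these marker levels in the differences given below was not tested.

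The 10 genes are spread over 8 chromosomes, with VEGFC, FGF2 and KDR at separate sites of chromosome 4. Promoters are shown for THBS1 and FGF2, whose levels followed each other across the libraries as described below, and for KDR, which followed another order. The RefSeq table of promoters (GRCh38.p14) gave 7 of the 10 genes, while those of VEGFA, SERPINF1 and ANGPT1 are not used here. The stretches end at the transcription start or at the first annotated exon base: chr15:39580829-39581078 on the plus strand for THBS1, chr4:122826581-122826707 on the plus strand for FGF2, and chr4:55125596-55125845 on the minus strand for KDR. Capitals mark matches, on either strand, to the hypoxia response cores ACGTG and GCGTG, the GC box GGGCGG, the TEAD core CATTCC, the KLF motif GGGNGTGG and the octamer ATGCAAAT.
THBS1: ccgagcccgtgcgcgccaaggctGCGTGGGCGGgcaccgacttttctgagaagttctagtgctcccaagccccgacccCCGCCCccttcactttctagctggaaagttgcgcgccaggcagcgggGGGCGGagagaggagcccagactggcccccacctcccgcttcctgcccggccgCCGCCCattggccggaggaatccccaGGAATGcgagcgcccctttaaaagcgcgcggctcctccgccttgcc
FGF2: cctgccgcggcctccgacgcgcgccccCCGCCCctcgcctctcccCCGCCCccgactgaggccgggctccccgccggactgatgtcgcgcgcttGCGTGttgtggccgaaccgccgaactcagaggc
KDR: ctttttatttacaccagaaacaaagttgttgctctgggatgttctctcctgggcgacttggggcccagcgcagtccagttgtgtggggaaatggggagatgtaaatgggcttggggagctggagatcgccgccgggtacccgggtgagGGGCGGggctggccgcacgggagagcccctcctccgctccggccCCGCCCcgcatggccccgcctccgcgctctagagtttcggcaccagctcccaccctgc
In the 250 bases before the start, THBS1 had 4 GC boxes, 1 GCGTG, which overlaps a GC box, and 1 TEAD core. FGF2 had 3 GC boxes, 1 GCGTG and 2 KLF motifs, of which the printed stretch holds 2 GC boxes and the GCGTG, and KDR had 2 GC boxes and none of the others. Over 35116 promoters of the same length, 42.6% held a GC box, 32.2% GCGTG, 18.5% ACGTG, 11.9% the TEAD core, 15.7% the KLF motif and 1.63% the octamer. The GC content was 69.6% for THBS1, 75.2% for FGF2 and 65.2% for KDR, against a median of 58% over all promoters. These matches describe the letters and are not evidence of binding.

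Of the 10 genes, 8 passed the filter on low counts and were tested, in a single fit of all 15179 genes that passed. PGF and FLT1 did not pass, and ANGPT1 passed only through its reads in OSK, so that counts are given for the 7 other genes first and with ANGPT1 after. For comparisons with OSK, the counts with ANGPT1 rest on that selection and are not read as a result. The 7 each differed somewhere among the 4 groups (edgeR F test, adjusted p from 1.59e-11 to 0.002), where 66.9% of all genes tested did. In GSTA4 against GFP 4 of the 7 were past the threshold of an adjusted p of 0.05, lower in GSTA4 each time, and ANGPT1 was not past it (29.2% of all genes tested were past it, 14.7% as higher and 14.6% as lower). In OSK against GFP 6 of 7 were past it, each lower in OSK, and with ANGPT1 7 of 8 (45.9% of all genes, 23.1% as higher and 22.8% as lower). GFP differed from WT for 5 of 7, with 4 lower and 1 higher in GFP, and with ANGPT1 for 6 of 8 (22.2%, 11% as higher and 11.2% as lower). OSK differed from GSTA4 for 7 of 7, with 3 higher and 4 lower in OSK, and with ANGPT1 for 8 of 8 (47.8%, 24.1% as higher and 23.8% as lower). Of the 7, VEGFA and THBS1 were past a log2 fold change of 1 as well in GSTA4 against GFP (5.7% of all genes). KDR was in OSK against GFP (11.6%), SERPINF1 in GFP against WT (3.31%) and none of the 7 in OSK against GSTA4 (13.1%). ANGPT1 was past both limits in each of these comparisons except GSTA4 against GFP. In these 4 comparisons the 3 libraries of each group did not overlap for 5, 6, 5 and 7 of the 7, where 42.3%, 54.7%, 34.6% and 58% of all genes tested did not overlap. Comparisons with GFP share the GFP libraries. The median log2 fold change of the 7, in the order of the 4 comparisons above, was -0.74, -0.51, -0.23 and -0.32, against 0.01, -0.02, 0.01 and -0.01 over all genes tested. With ANGPT1 the last of these was 0.16.

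**Figure D1:**
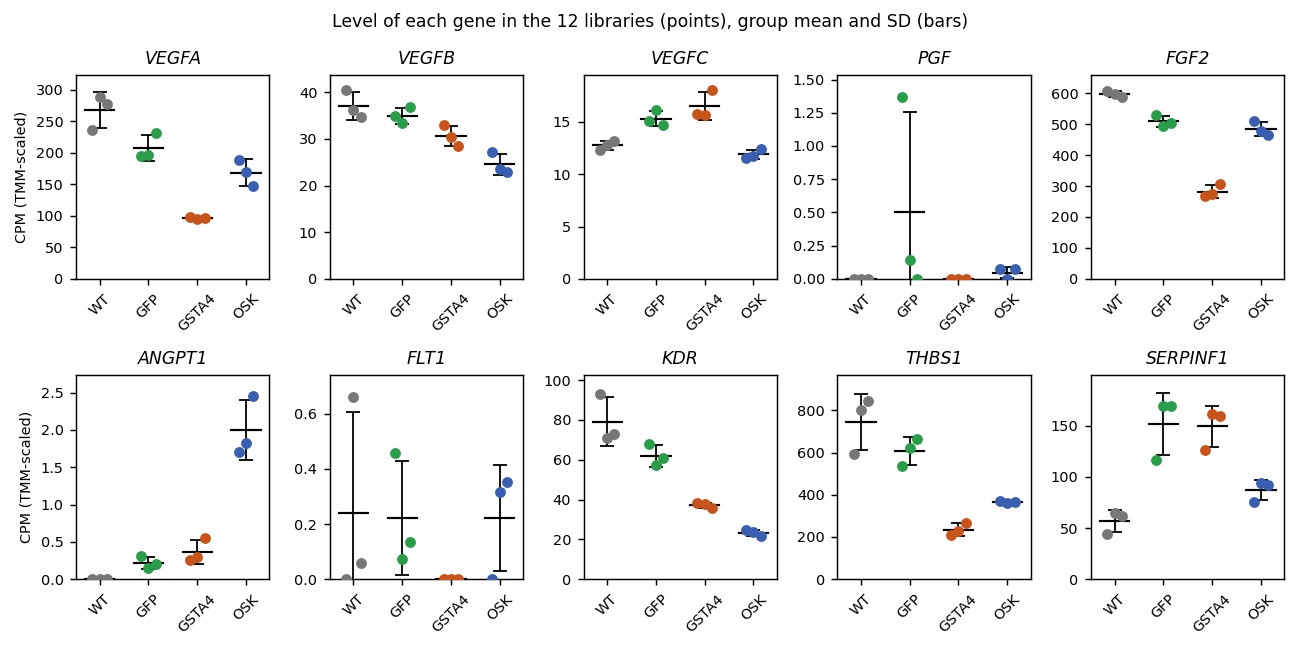
Level of each of the 10 genes in CPM (linear axes from 0) in the 12 libraries, coloured by group, with the mean and SD of n = 3 as bars (SD bars that would reach below 0 are cut at the axis). VEGFA, FGF2 and THBS1 are lowest in GSTA4, KDR and VEGFB are lowest in OSK, and SERPINF1 is lowest in WT.

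VEGFA, the main vascular growth factor of the RPE, stood at 236, 289 and 278 CPM in the WT replicates and at 195, 197 and 232 in GFP. The OSK libraries had 189, 169 and 147 CPM and the GSTA4 libraries 98, 95.6 and 97.2. No library of one group overlapped another in any pair of groups, and GSTA4 was lowest with the narrowest spread (mean 96.9 CPM ± 1.23, n = 3). VEGFA fell 2.15-fold in GSTA4 against GFP, a log2 fold change of -1.10 (95% interval -1.29 to -0.92, edgeR adjusted p = 6.02e-09). It was lower by 1.24-fold in OSK against GFP (log2 -0.30, adjusted p = 0.00679), but without GFP replicate 3 or without OSK replicate 3 that difference was -0.21 and no longer past the threshold (0.0585 and 0.0632). In GFP against WT it was lower too, at -0.36 (adjusted p = 0.00468). OSK exceeded GSTA4 by 0.80 (interval 0.61 to 0.98, adjusted p = 2.17e-07).

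VEGFB, a ligand of FLT1 linked to fatty acid handling, averaged 37.1 CPM ± 2.97 in the WT libraries (40.4, 36.2 and 34.7), 35 ± 1.72 in GFP, 30.6 ± 2.21 in GSTA4 and, lowest, 24.6 ± 2.33 in OSK (27.2, 23.5 and 22.9; n = 3 each). The 3 GSTA4 libraries (32.9, 30.5 and 28.5 CPM) lay below the 3 GFP libraries (34.8, 33.4 and 36.8), but the log2 difference of -0.19 (interval -0.38 to 0) was not past the threshold (adjusted p = 0.131). VEGFB fell in OSK, by 0.51 on the log2 scale against GFP (adjusted p = 0.000131), and its order of means was WT, GFP, GSTA4, OSK. WT and GFP did not differ beyond their spread (log2 -0.09, interval -0.27 to 0.1).

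VEGFC, the lymphangiogenic ligand, was the one tested VEGF ligand with its highest mean in GSTA4. It had 15.8, 15.7 and 18.1 CPM there, 15.1, 16.1 and 14.7 in GFP, 12.3, 12.8 and 13.2 in WT and 11.6, 11.7 and 12.4 in OSK. The GSTA4 and GFP libraries overlapped (log2 0.11, interval -0.11 to 0.33, adjusted p = 0.477), as did those of OSK and WT. OSK was lower than GFP by 0.37 on the log2 scale (log2 -0.37, adjusted p = 0.00996, and 0.052 with no filter on low counts) and than GSTA4 by 0.48 (log2 -0.48, adjusted p = 0.00109). GFP against WT was at 0.26 with an adjusted p of 0.0895, although the 3 libraries of each did not overlap.

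PGF, placental growth factor, was near the limit of detection. It had 18, 2 and 0 reads in the GFP replicates, 1, 0 and 1 in OSK and 0 in the 6 libraries of WT and GSTA4, which allows up to 0.0642 CPM over WT and 0.0687 over GSTA4. Of its 20 GFP reads 18 were in replicate 1, the library with the most genes detected. In that library CDH5 and PECAM1, endothelial markers, had 12 reads each, against 1 to 2 in the other GFP libraries. The endothelial marker EGFL7 went the other way, with 8, 17 and 13 reads in the GFP replicates. The excess was not confined to endothelial markers. THY1, a fibroblast marker, had 17, 2 and 0 reads in GFP, while ACTA2, another, had 198, 264 and 284. The part of this excess in the PGF reads was not tested. With no filter on low counts PGF passed edgeR's threshold in GSTA4 against GFP (adjusted p = 0.0241) and GFP against WT (0.0269), where 18 of the 20 reads behind it are from 1 library.

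FGF2, a growth factor stored on heparan sulfate, had 606, 597 and 588 CPM in WT and 530, 494 and 505 in GFP. It had 509, 478 and 464 CPM in OSK and 267, 273 and 307 in GSTA4. The highest GSTA4 library lay far below the lowest of any other group, while OSK and GFP overlapped. FGF2 fell 1.81-fold in GSTA4 against GFP (log2 -0.85, interval -0.98 to -0.72, edgeR adjusted p = 1.4e-09). Against GFP, OSK differed by -0.08 (interval -0.2 to 0.05, adjusted p = 0.339), and OSK exceeded GSTA4 by 0.78 (adjusted p = 1.72e-09). In GFP against WT the log2 difference was -0.23 (adjusted p = 0.012, and 0.056 without GFP replicate 2). In GENCODE release 29 the exons of FGF2 share 804 bases, 11.9% of their length, with NUDT6 on the other strand. No counting strand is given in the sources used here, so reads of the shared part cannot be assigned. NUDT6 had 4.3 to 6.9 CPM (group means).

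ANGPT1, the vessel-stabilising ligand, had 0 reads in the 3 WT libraries, 4, 2 and 3 in GFP, 4, 4 and 8 in GSTA4 and 24, 29 and 35 in OSK. Every OSK library lay above every other library, at 1.71, 1.83 and 2.46 CPM against at most 0.55. Pooled over its libraries OSK had 88 reads, or 1.99 CPM, which is at least 31-fold higher than the 3 reads that a count of 0 allows over the WT group. Since those reads are what let ANGPT1 pass the filter, the levels in OSK are given as a description. Its calls in comparisons with OSK, counted above, are not used as support. GSTA4 against GFP was at a fitted log2 fold change of 0.75 with a wide interval (-0.59 to 2.09, edgeR adjusted p = 0.422). GFP against WT was past the threshold (edgeR adjusted p = 0.0143) on 9 reads against 0.

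KDR, the main signalling receptor for VEGFA, had 93.3, 70.8 and 73.2 CPM in WT and 67.9, 57.3 and 60.7 in GFP. Its level was 38.1, 37.6 and 35.7 CPM with GSTA4 and 24.5, 23.8 and 21.7 with OSK. The 4 groups stood in that order with no overlap. KDR fell 2.65-fold in OSK (log2 -1.41, interval -1.62 to -1.2, edgeR adjusted p = 4e-10) and 1.67-fold in GSTA4 (log2 -0.74, adjusted p = 6.64e-06) against GFP, and OSK was lower than GSTA4 (log2 -0.67, adjusted p = 1.66e-05). GFP was lower than WT by 0.35 on the log2 scale (log2 -0.35, adjusted p = 0.00966), a call lost without WT replicate 1 (-0.22, adjusted p = 0.06) and without GFP replicate 2 (-0.30, adjusted p = 0.0632). KDR is best known from endothelium, so the endothelial markers are given beside it. Of the 12, the 9 that were not tested had at most 23 reads in a library, among them PECAM1 and CDH5 with 0 or 1 read in each GSTA4 and OSK library, where KDR had from 309 to 1502 reads in every library. The 3 tested ones were low too, and each had an order of its own. EGFL7 had 2.21, 0.902, 3.66 and 0.459 CPM in WT, GFP, GSTA4 and OSK (means), VWF 0.248, 1.28, 0.459 and 2.04, and ESAM 2.32, 1.02, 0.574 and 0.99. Their part in the KDR differences was not tested. FLT1, the high-affinity receptor that also acts as a decoy, had 0, 9 and 1 reads in WT, 6, 1 and 2 in GFP, 0 in the 3 GSTA4 libraries and 0, 5 and 5 in OSK. The 0 reads in GSTA4 allow up to 0.0687 CPM over the group, and with no filter the difference from OSK had an adjusted p of 0.0435 and that from GFP one of 0.0694.

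THBS1, the matricellular inhibitor that acts through CD36 and CD47, had 595, 802 and 844 CPM in WT and 535, 621 and 665 in GFP. It had 371, 360 and 368 CPM in OSK and 209, 228 and 268 in GSTA4. OSK, GSTA4 and the pair of WT and GFP did not overlap one another, while WT and GFP did. THBS1 fell 2.59-fold in GSTA4 against GFP (log2 -1.37, interval -1.6 to -1.15, edgeR adjusted p = 4.58e-09) and 1.66-fold in OSK (log2 -0.73, adjusted p = 1.05e-05). GSTA4 was lower than OSK, by 0.64 on the log2 scale (adjusted p = 4.55e-05). GFP against WT was at -0.30 with an adjusted p of 0.0484, next to the threshold, and 11 of 19 alternatives put it above (edgeR and DESeq2 adjusted p, range 5.92e-05 to 0.21), 8 of them by leaving out 1 library (WT replicate 2 or 3, GFP replicate 1 or 2, GSTA4 replicate 2 or any OSK replicate). Of the 5 tested fibroblast markers, COL1A1 (122.4, 82.5, 4.53 and 20.9 CPM in WT, GFP, GSTA4 and OSK), TAGLN (110.7, 126, 10.7 and 27.9) and FAP (10.2, 6.28, 1.95 and 2.38) also had their lowest mean in GSTA4, while PDGFRB (538.7 in GSTA4, 342.2 in OSK) and ACTA2 (23.9 and 10.5) were higher in GSTA4 than in OSK. Their part in the THBS1 differences was not tested. Of the exon bases of THBS1, 7.58% are shared with genes of the other strand, among them FSIP1, at 0.437 to 1.07 CPM (group means).

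SERPINF1, which encodes the secreted inhibitor PEDF, had its lowest mean in WT. It had 44.4, 64.8 and 61.5 CPM in WT, and 117, 169 and 169 in GFP. The GSTA4 libraries had 126, 162 and 160 CPM and the OSK libraries 75.9, 93.6 and 91.7. Each library of the 3 ORF lines lay above the highest WT library, and replicate 1 was the lowest in every group. SERPINF1 rose 2.67-fold in GFP against WT (log2 1.42, interval 1.13 to 1.71, edgeR adjusted p = 5.82e-07). GSTA4 and GFP overlapped (log2 -0.02, interval -0.3 to 0.25, adjusted p = 0.924). OSK was lower than GFP by 0.80 on the log2 scale (log2 -0.80, adjusted p = 5.92e-05) and than GSTA4 (log2 -0.78, adjusted p = 6.77e-05), yet higher than WT (log2 0.62, adjusted p = 0.00113). The direction in OSK therefore depends on which control is used.

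**Figure D2:**
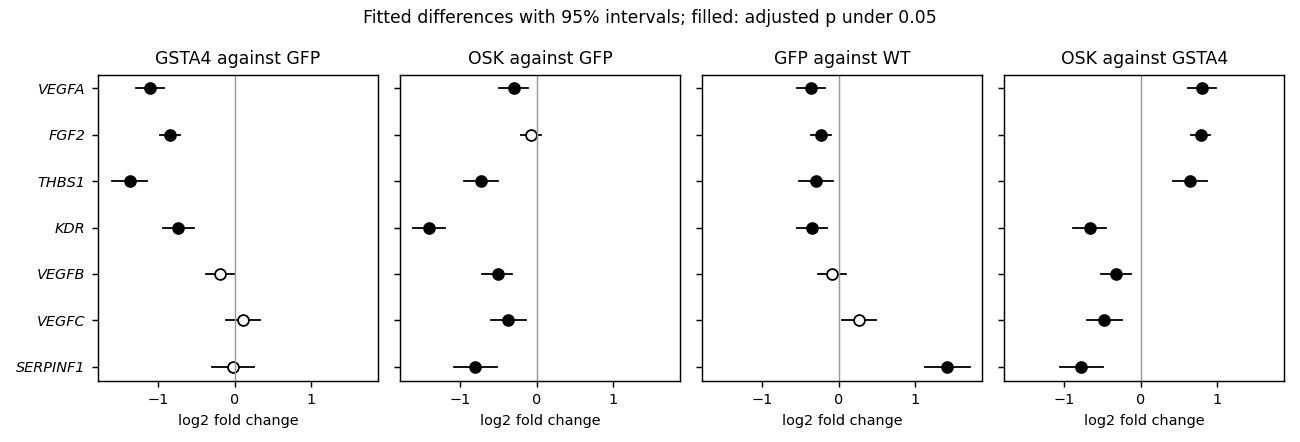
Log2 fold changes of the 7 genes with reads in every library, with 95% intervals from the fit, in the 4 comparisons. Filled points are past an adjusted p of 0.05 over all 15179 genes tested and open points are not. In OSK against GSTA4 the genes VEGFA, FGF2 and THBS1 lie to the right of 0 and KDR, VEGFB, VEGFC and SERPINF1 to the left.

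With WT in place of GFP as the control, 7 of the 7 tested genes other than ANGPT1 were past the threshold in GSTA4, 2 higher and 5 lower (38.6% of all genes tested, 19.7% as higher and 19% as lower). In OSK 6 of 7 were, 1 higher and 5 lower (45.4%, 22.7% as higher and 22.7% as lower). The libraries did not overlap for 7 of 7 (49% of all genes) and for 6 of 7 (53.5%). In GSTA4 against WT, VEGFA (log2 -1.47), KDR (-1.09), THBS1 (-1.67), FGF2 (-1.08) and VEGFB (-0.28) were lower, and SERPINF1 (1.39) and VEGFC (0.37) were higher. In OSK against WT, VEGFA (-0.67), KDR (-1.76), THBS1 (-1.03), FGF2 (-0.30) and VEGFB (-0.60) were lower and SERPINF1 (0.62) higher. The means of VEGFA, KDR, THBS1 and FGF2 were thus highest in WT.

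Across the 12 libraries the genes fell into few profiles, given here as Pearson's r of log2 CPM over libraries that share the 4 groups. VEGFA ran with FGF2 (r = 0.96) and with its functional opponent THBS1 (0.96), and FGF2 with THBS1 (0.90). KDR ran with VEGFB (0.95), and both ran against ANGPT1 (-0.94 and -0.93). However, ANGPT1 had at most 8 reads in a library outside OSK and passed the filter only through OSK. KDR and VEGFB were lowest in that group, so these 2 values add no separate support. SERPINF1 was nearest to VEGFC (0.78) and ran against FGF2 (-0.64) and VEGFA (-0.59). Among 9597 tested genes outside the 10 with a mean of at least 10 CPM, the genes most like VEGFA were CDKN2B (r = 0.99) and KANK1 (0.975), those most like THBS1 were LTBP2 (0.991) and SLC3A2 (0.989), and those most like FGF2 were MFAP3L (0.993) and PLXDC2 (0.99). For KDR they were ITPRID2 (0.992) and CCNG2 (0.984), for SERPINF1 BACE2 (0.966) and HMGN2 (0.962), for VEGFB ST6GALNAC3 (0.972) and CYB5R1 (0.964), and for VEGFC SEMA4A (0.97) and SLC16A4 (0.963).

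Ratios of 2 genes' reads within a library do not depend on scaling. The ratio of VEGFA to SERPINF1 reads was 5.32, 4.45 and 4.53 in WT and 1.67, 1.17 and 1.37 in GFP. With GSTA4 it was 0.777, 0.589 and 0.606, and with OSK 2.49, 1.81 and 1.61. WT lay above all other libraries and GSTA4 below them, and the OSK and GFP ranges overlapped. The ratio of VEGFA to THBS1 reads varied far less, from 0.317 to 0.509 over the 12 libraries, but was not the same in all groups. It was 0.509, 0.47 and 0.401 in OSK, above every WT and GFP library (at most 0.398). The GSTA4 libraries, at 0.47, 0.42 and 0.363, overlapped those of each other group. The ratio of VEGFA to KDR reads was 7.2 ± 0.464 in OSK, against 3.47 ± 0.823 in WT, 3.38 ± 0.472 in GFP and 2.61 ± 0.1 in GSTA4 (n = 3 each).

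**Figure D3:**
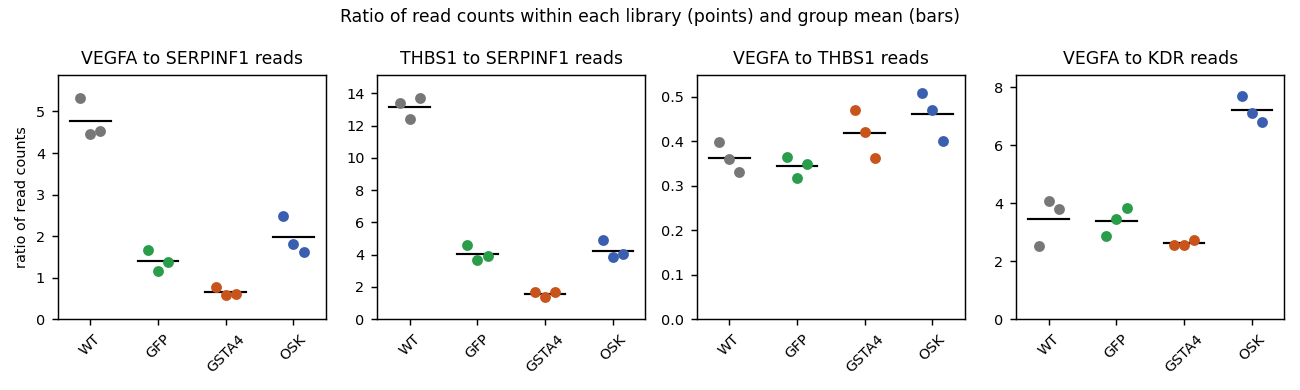
Ratio of read counts of 2 genes within each library (points) and the mean of each group (bars), on linear axes from 0. VEGFA and THBS1 are highest relative to SERPINF1 in WT and lowest in GSTA4. The ratio of VEGFA to THBS1 lies between 0.317 and 0.509, with the OSK libraries above those of WT and GFP. VEGFA relative to KDR is highest in OSK.

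Levels of different genes were compared per kilobase of exon, with lengths from GENCODE release 29 that may not be those of the authors' annotation. Over the 12 libraries the means were 69.1 for FGF2, 53.4 for THBS1, 36.3 for SERPINF1, 20.6 for VEGFB, 12.8 for VEGFA, 7.68 for KDR and 5.84 for VEGFC (CPM per kilobase). The value of VEGFA rests on an exon length of 14431 bases, from the exons of all its annotated transcripts merged into 4 blocks. Per kilobase of the longest coding transcript SERPINF1 came first at 71.9, FGF2 had 69.1, THBS1 62.9 and VEGFA 52.4. The order of the upper 5 genes thus depends on the length used, while KDR, VEGFC, ANGPT1, PGF and FLT1 kept the same order below them.

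NRP1, a coreceptor of VEGFA, ran opposite to KDR. It had 11.9, 10.3 and 11.3 CPM in WT and 25.5, 20.4 and 20 in GFP. It had 60.2, 65.1 and 63 CPM in GSTA4 and 70.3, 73.5 and 88.1 in OSK, so that the 4 groups rose in this order with no overlap. It rose by a log2 fold change of 1.52 in GSTA4 (SE 0.101, edgeR adjusted p = 3.24e-10) and 1.82 in OSK against GFP (SE 0.1, adjusted p = 7.17e-12). SDC2, a heparan sulfate proteoglycan, rose by 1.00 and 1.09. HSPG2, the basement membrane proteoglycan perlecan, fell in GSTA4 (-0.91) and rose in OSK (0.48), and NRP2 rose in OSK (2.98, from 0.635 to 5 CPM). Of the 7 genes of this list, 5 were tested, of which 2 rose and 1 fell in GSTA4 against GFP. In OSK against GFP 5 rose (4 without GFP replicate 1), and 3 rose in GFP against WT (1 without WT replicate 1). In OSK against GSTA4 3 were higher (2 with library size alone). The share past the threshold was 60%, 100%, 60% and 60% of 5 genes, beside 29.2%, 45.9%, 22.2% and 47.8% of all genes tested. The median log2 fold change over the 5 was 0.40, 1.09, 0.40 and 0.44 in these comparisons.

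Of 11 angiopoietin relatives and TIE receptors, 4 passed the filter on low counts and were tested. TEK, the receptor of ANGPT1, did not pass the filter and had at most 9 reads in a library. ANGPTL7 had 45.7 CPM ± 4.92 in GFP. Against GFP it fell in GSTA4 (log2 -1.40, edgeR adjusted p = 1e-04) and in OSK (log2 -2.68, adjusted p = 3.22e-08). It was the 1 gene of the list past the threshold in each, or 25% of the 4, beside 29.2% and 45.9% of all genes tested. Without GFP replicate 1 another gene was higher in GSTA4, and the median of the 4 in OSK against GFP was -0.32 in place of -1.10. In the FGF list 14 of 17 genes were tested, and 8 rose in GSTA4 and 6 in OSK against GFP (medians 0.32 and 0.44). This was 57.1% and 42.9% of the 14, beside 29.2% and 45.9% of all genes tested, and FGF1 and FGF7, which are among the 6, passed the filter on low counts only through OSK. Without GFP replicate 1 the counts were 6 and 7. FGF5 (log2 1.09) and FGF9 (2.06) rose in GSTA4. In OSK FGFR1, an FGF receptor, rose by 0.71 and SPRY2, a feedback inhibitor, by 0.72. FGF7, an epithelial growth factor, had 287 reads over the OSK group (6.47 CPM ± 0.938) and 2 over GFP.

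Of 26 further angiogenic ligands 18 were tested. In GSTA4 against GFP 5 were higher and 5 lower, in OSK 4 higher and 8 lower, and the median log2 fold changes were -0.05 and -0.07. The shares past the threshold were 55.6% and 66.7%, beside 29.2% and 45.9% of all genes tested, and PLAU, among the 5 higher in GSTA4, passed the filter on low counts only through that group. Without GFP replicate 1 the higher count in GSTA4 was 3 and the medians were 0.09 and 0.11. JAG1, a Notch ligand, had 24.2, 25 and 24.7 CPM in GFP, 33.1, 35.2 and 33.5 in GSTA4 and 235, 219 and 214 in OSK, a log2 fold change of 3.18 in OSK (SE 0.0794, adjusted p = 2.02e-17). CCN2, a matricellular growth factor, fell in GSTA4 (-1.50) and OSK (-1.06), PDGFD, a PDGF receptor ligand, fell in GSTA4 (-1.19, adjusted p = 1.25e-11), and EDN1, encoding endothelin 1, rose in GSTA4 from 2.06 to 9.13 CPM (2.14).

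The other inhibitors of angiogenesis, 20 of 26 tested, held 12 lower and 2 higher genes in GSTA4 against GFP (median log2 fold change -0.62) and 11 lower and 6 higher in OSK (median -0.44). These were 70% and 85% of the 20, beside 29.2% and 45.9% of all genes tested. In OSK against GSTA4 9 were higher and 4 lower (median 0.25), which was 65% of the 20, beside 47.8% of all genes tested. COL4A3, the source of the fragment tumstatin, had 109, 106 and 107 CPM in GFP, 23.7, 21.4 and 24.8 in GSTA4 and 664, 656 and 647 in OSK. It fell in GSTA4 (log2 -2.20, SE 0.0683, adjusted p = 4.77e-15) and rose in OSK (2.61, SE 0.0617, adjusted p = 7.33e-18). The semaphorin SEMA3B followed the same split, with -0.74 in GSTA4 and 1.95 in OSK, as did SEMA3F (-0.52 and 2.43) and EFEMP1, the matrix protein fibulin-3 (-1.30 and 0.89). FBLN5 (fibulin-5) fell in GSTA4 (-2.79) and in OSK (-2.04). Among 10 tested receptors and processing factors of THBS1 and PEDF, 5 fell in GSTA4, with ITGB5 (-1.08), ITGAV (-0.64) and LRP1 (-0.69) among them. In OSK 3 rose, CALR (0.55), LRP1 (0.28) and PNPLA2, a PEDF receptor (0.23), and 7 of 10 were higher in OSK than in GSTA4. The 50%, 30% and 70% past the threshold stand beside 29.2%, 45.9% and 47.8% of all genes tested. With library size alone as the scaling, 2 genes in place of 3 were higher in OSK against GFP.

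VEGFA is a target of the hypoxia-inducible factors (HIF), so their regulators and targets were set beside it. HIF1A, the oxygen-regulated subunit, had 797, 575 and 566 CPM in WT and 471, 424 and 436 in GFP. It had 285, 278 and 293 CPM in GSTA4 and 288, 276 and 278 in OSK. It fell in GSTA4 (log2 -0.64, adjusted p = 2.39e-05) and in OSK (-0.66, adjusted p = 6.3e-06) against GFP, and in GFP against WT (-0.54, adjusted p = 0.000289), while GSTA4 and OSK overlapped. Of 12 tested regulators, 2 rose and 2 fell in GSTA4, 3 and 3 in OSK, and 3 fell in GFP against WT. These are 33.3%, 50% and 25% of the 12, near the 29.2%, 45.9% and 22.2% of all genes tested that were past the threshold. With library size alone the counts in OSK were 1 and 4.

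The 26 HIF targets other than VEGFA were all tested, and some of them, such as ADM and ANGPTL4, also stand in another list. In GSTA4 against GFP 3 rose and 11 fell (median log2 fold change -0.28), in OSK 9 rose and 6 fell (median 0.08), and in GFP against WT 1 rose and 13 fell (median -0.26). The shares past the threshold were 53.8%, 57.7% and 53.8%, beside 29.2%, 45.9% and 22.2% of all genes tested. With library size alone the split in OSK was 8 and 8, and without GFP replicate 1 the 3 rises in GSTA4 were 1. SLC2A1, the glucose transporter GLUT1, had 1440, 1470 and 1480 CPM in GFP, 757, 669 and 618 in GSTA4 and 3630, 3060 and 3000 in OSK. LDHA, lactate dehydrogenase A, followed it, with a log2 fold change of 1.72 in OSK and 108.2 CPM ± 3.58 in GSTA4 against 253.6 ± 4.29 in GFP. LOX, a collagen cross-linking enzyme, fell by 1.96 in GSTA4 (log2 -1.96) and rose by 1.74 in OSK, and CA9, a carbonic anhydrase used as a hypoxia marker, fell in GSTA4 (-2.72). In GSTA4 VEGFA fell, as did these 4 targets (LDHA by 1.23 on the log2 scale), which were named for a low adjusted p. Of all 26 targets, 11 fell there, 3 rose and 12 did neither. CA9 was the 1 target that rose in GFP against WT (log2 1.61), where 13 targets and VEGFA (-0.36) fell. In OSK VEGFA was lower than in GFP while SLC2A1, LDHA and LOX were higher. OSK against GSTA4 had 13 of the 26 higher and 3 lower, with VEGFA at 0.80, SLC2A1 at 2.24 and LOX at 3.70. The part of HIF in the VEGFA differences was not tested.

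**Figure D4:**
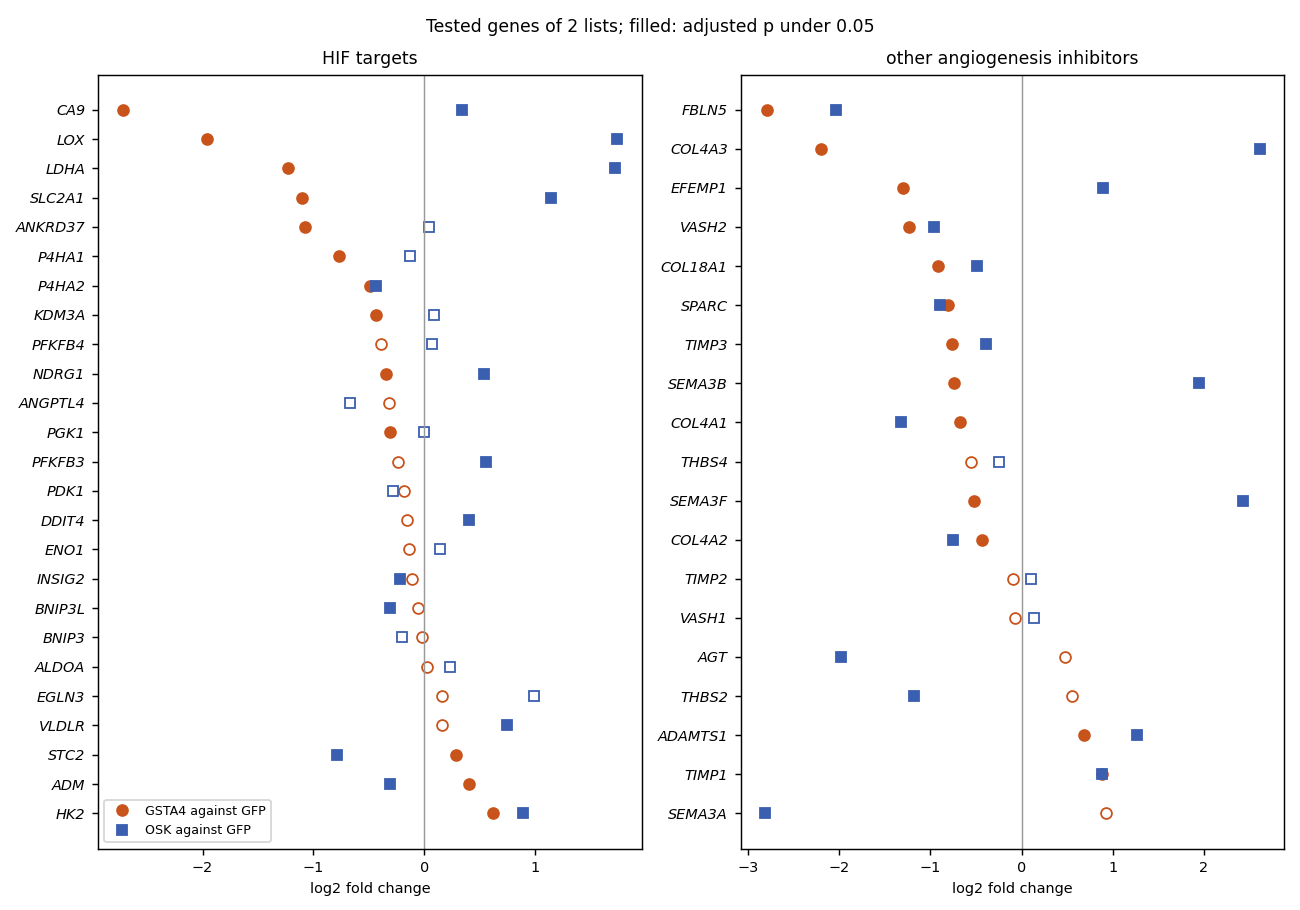
Log2 fold changes of the tested HIF targets (left) and other angiogenesis inhibitors (right) in GSTA4 against GFP (circles) and OSK against GFP (squares), sorted by the former. Filled symbols are past an adjusted p of 0.05, and 1 gene of each list is not shown. CA9, LOX and SLC2A1 lie at -2.72, -1.96 and -1.10 in GSTA4, and COL4A3 lies at -2.20 in GSTA4 and 2.61 in OSK.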

How the data were processed

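The authors deposited 1 table of raw read counts per gene for the 12 libraries, with a gene symbol and a gene type per line. The submitters' processing notes list STAR 2.7.1a, featureCounts 1.6.2 and the builds GRCh38 and GRCm38, with no role given, and the annotation release and strand setting are not given in the sources used here. Of 60605 lines 20014 had no symbol (0.485% to 0.822% of a library's reads) and were left out. Genes that passed filterByExpr (15179) were fitted in R 4.3.3 with the quasi-likelihood pipeline of edgeR 4.0.16 on TMM-scaled library sizes, with a mean per group, 8 residual and 12 prior degrees of freedom, a common biological coefficient of variation of 7.91% and Benjamini-Hochberg adjustment over all genes tested at 0.05. Standard errors were the log2 fold change over the root of F, and 95% intervals used the t distribution. CPM values used TMM-scaled library sizes. The test was also run on simulated counts drawn with the fit's own spread, which cannot show how it behaves with replicates as uneven as these. Members and gene lists were chosen with earlier results of these data known. Members are always named. Of each further list the text names only genes, up to 3 per comparison, that passed 0.05 with the lowest adjusted p, averaged at least 1 CPM and did not overlap between groups, except markers, TEK, genes overlapping a member or standing in more than 1 list, and genes that passed the filter through 1 group (not kept once that group's libraries are left out), named for context after their values were seen. Alternatives tried were DESeq2 1.42.0, RLE scaling, plain library size, testing every gene, testing genes that average 1 CPM or more, the replicate block, each library left out, only the 6 libraries compared, a minimum log2 change of 1 and WT as the control. List counts without GFP replicate 1 or WT replicate 1, under other scalings, and member counts without ANGPT1, were added after seeing the data. Replicates differed by more than sampling noise in every pair, so none was merged. The values of 1 list gene are not reported here.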

Additional observations from a re-analysis of the deposited data

How the results depend on the processing

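The numbers of the 8 tested genes past the threshold were 4 in GSTA4 and 7 in OSK against GFP, 6 in GFP against WT, 8 in OSK against GSTA4 and 8 in the F test. In the same order 29.2%, 45.9%, 22.2%, 47.8% and 66.9% of all genes tested were past it. The 8 include ANGPT1, which passed the filter on low counts only through OSK. With each library left out in turn these numbers, in the same order, ranged from 4 to 4, 6 to 7, 3 to 6, 8 to 8 and 8 to 8, and the 3 in GFP against WT came without GFP replicate 2. A minimum log2 fold change of 1 left 2, 2, 2 and 1, by its construction, with ANGPT1 in all but the first of these. It left 5.7%, 11.6%, 3.31% and 13.1% of all genes tested. WT as the control gave 8 in GSTA4 (38.6% of all genes tested). The replicate block gave 4, 7, 6, 8 and 8, and it changed no call of a single gene. Of 18 pairs of same-numbered libraries 3 had a correlation of deviations above 0.1 (range -0.0193 to 0.153). Pairs of different numbers ranged from -0.0982 to 0.077, so same-numbered pairs reached somewhat higher. Only 2 of 12 libraries were nearest to their own number in every other group, and the numbers were not taken to pair the samples. Of the 32 single values 26 kept direction and call under every alternative other than the size minimum and WT. SERPINF1 in GSTA4 against GFP, at -0.02, ranged from -0.18 (without GFP replicate 1) to 0.09 with a library left out, and turned to 0.05 without GFP replicate 2, 0.06 without GFP replicate 3, 0.09 without GSTA4 replicate 1 and 1.39 with WT as the control, and in OSK to 0.62 with WT. The cause was not tested. Library size alone lowered the median of all genes by 0.07 (log2) in OSK against GFP, and 40% of calls were then higher rather than 50.4%. Depth limits PGF and FLT1, with at most 20 reads in a group.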

Other observations

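Genes that act on the splicing or stability of VEGFA RNA were all tested (12 of 12). In GSTA4 against GFP 4 rose and 2 fell, with a median log2 fold change of 0.01. CLK1, a kinase of splicing factors, fell there (log2 -0.76, edgeR adjusted p = 4.9e-09) and in OSK (-0.87, adjusted p = 2.6e-10), ZFP36L2, an RNA decay factor, fell in GSTA4 (-0.48), and SRSF6 rose in GSTA4 (0.33). In OSK 3 rose and 4 fell, with SRPK1 (0.52) and ZFP36L1 (0.83) among the rises. With library size alone these were 2 and 6. The shares past the threshold, 50% in GSTA4 and 58.3% in OSK, stand beside 29.2% and 45.9% of all genes tested.

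THBS1 lies on chromosome 15 at 39581079 to 39599466 (GRCh38, GENCODE release 29). It was 2.59-fold lower in GSTA4 than in GFP, but of 18 tested genes within 1000000 bases of it 10 were higher and 1 lower in GSTA4, with a median log2 fold change of 0.51. In OSK against GFP 3 of these neighbours were higher and 8 lower (median -0.14). In OSK against GSTA4 2 were higher and 12 lower (median -0.73), where THBS1 was higher by 0.64. Of all genes tested, 14.7% were higher and 14.6% lower in GSTA4 against GFP. The shares were 23.1% and 22.8% in OSK against GFP, and 24.1% and 23.8% in OSK against GSTA4. VEGFB, on chromosome 11, had 45 tested neighbours within the same distance, of which 3 were higher and 6 lower in GSTA4 against GFP (median -0.07), beside a log2 fold change of -0.19 for VEGFB. For FGF2, 0 of 8 tested neighbours were higher and 3 lower in GSTA4 against GFP (median -0.36), beside -0.85 for FGF2. In OSK against GSTA4, 4 were higher and 1 lower (median 0.56), beside 0.78 for FGF2. Such windows were counted for 7 of the genes, and those given were chosen after the values were seen.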
